A study of Mus musculus with 21 samples.

Results

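The 10 Eph receptor genes Epha1, Epha2, Epha3, Epha4, Epha5, Epha7, Ephb1, Ephb2, Ephb3 and Ephb4 were followed, by gene symbol, through 21 RNA-seq libraries that each list 48321 symbols. They were chosen by the CPM of Epha3, whose rise in every induced line was already known, so its levels in the induced lines against either control are described here without a test. The libraries came from embryoid bodies, which are mouse embryonic stem cells left to differentiate in aggregates, on day 3 of differentiation. The cells were A2loxCre embryonic stem cells (strain C57BL/6), a line built for the integration of a coding sequence behind a doxycycline-inducible promoter, and 3 samples were taken per group. The parental group was the A2loxCre line without an integrated sequence, given doxycycline. The monomer line carried integrated Twist1 and was sampled without doxycycline (uninduced monomer) and with it (induced monomer). The homodimer line carried Twist1 joined to Twist1, and 3 heterodimer lines carried Twist1 joined to Tcf3, Tcf4 or Tcf12, all with doxycycline. Protein expression had been induced 16 h before collection. The labels name 1 line per construct and do not say whether it is a clone, and nothing in them says that the samples of a group came from separate cultures. The p-values therefore measure the spread between these samples, which may be technical. The uninduced monomer line differs from its induced state in doxycycline alone, whereas the parental line shares the doxycycline of the induced lines and differs in cell line.

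Eph receptors are receptor tyrosine kinases that bind ephrins, ligands tethered to the surface of neighbouring cells, and contact often leads to repulsion, boundary formation or changes of adhesion. Ephrin-A ligands are held by a lipid anchor and bind mostly EphA receptors, and ephrin-B ligands span the membrane and bind mostly EphB receptors, while EPHA4 binds both. In the early embryo these receptors take part in the patterning of mesoderm, somites and neural tissue, and EPHB4 with ephrin-B2 separates veins from arteries. TWIST1, a bHLH factor active in mesenchyme, recognises E-boxes once paired, either with a further TWIST1 or with an E-protein (TCF3, TCF4, TCF12).

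Total counts per library lay between 6648842 and 15999693, so that 3 counts, taken as the floor, corresponded to 0.188 to 0.451 CPM, the count per 1000000 counts of a library. Library totals were scaled with TMM factors, and errors are SD with n = 3 unless SE is written. The embryoid body markers were present in every group, and all 6 of the listed genes passed the filter on low counts. In the uninduced monomer line Twist1 stood at 5.07 ± 0.63 CPM, and in the parental line at 8.11 ± 0.79 CPM. It reached 613.0 ± 31.6 CPM in the induced monomer, 182.3 ± 16.6 CPM in the homodimer and group means of 39.4 to 55.2 CPM in the heterodimers. Tcf4 marked the TCF4 dimer line at 330.4 ± 22.6 CPM. Tcf3 was no higher in the libraries carrying the TCF3 dimer label, at 154.2 ± 4.5 CPM, than in the parental line, at 167.2 ± 5.9 CPM. Tcf12 stood at 104.3 ± 14.7 CPM there and at 93.1 ± 34.8 CPM under the TCF12 dimer label. Both groups are therefore called TCF3-labelled and TCF12-labelled libraries. TCF12-labelled sample 1 stood apart. Its log2 deviation from the mean of the other 2 samples of its group had a median size of 0.499 over 8953 genes. That deviation had a Spearman correlation of -0.739 with transcript length, where the 18 samples from other groups gave -0.457 to 0.514. Epha3 stood in it at 0.472 times, Epha4 at 0.465 times and Ephb2 at 1.03 times the mean of samples 2 and 3. Without it, 41 calls among 350 tested values of the receptors and ephrins were gained, 3 were lost and 0 reversed. The values without it stand beside some of the results below, and not every gained call is named. The lost calls were Ephb1 and Efnb2 in the TCF12-labelled libraries against the induced monomer and Efna1 there against the uninduced monomer. In these bulk samples, fewer cells of a type and less RNA per cell cannot be told apart.

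Epha3, a receptor of migrating and mesenchymal cells, was close to absent in both controls and present in all 15 induced libraries (plot of Epha3 and Twist1 by sample). The gene lies on the minus strand at chr16:63543534-63864175 (GRCm38). Samples 1 to 3 of the parental line stood at 0.872, 0.325 and 0.101 CPM, and those of the uninduced monomer line at 0, 0.418 and 0.391 CPM. These rest on 12 and 8 counts in all. The induced monomer samples stood at 12.5, 12.3 and 12.4 CPM. The homodimer samples were higher, at 20.5, 20.2 and 21.2 CPM, and the samples of the TCF3-labelled libraries stood at 21.9, 17.3 and 19.9 CPM. The TCF4 dimer samples were the lowest of the induced lines, at 9.28, 7.53 and 6.57 CPM. Those of the TCF12-labelled libraries were spread most widely, at 7.87, 17.9 and 15.5 CPM, with the low value in the sample that stands apart. No induced sample overlapped a control sample, in the values by which the gene was chosen.

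**Figure D1:**
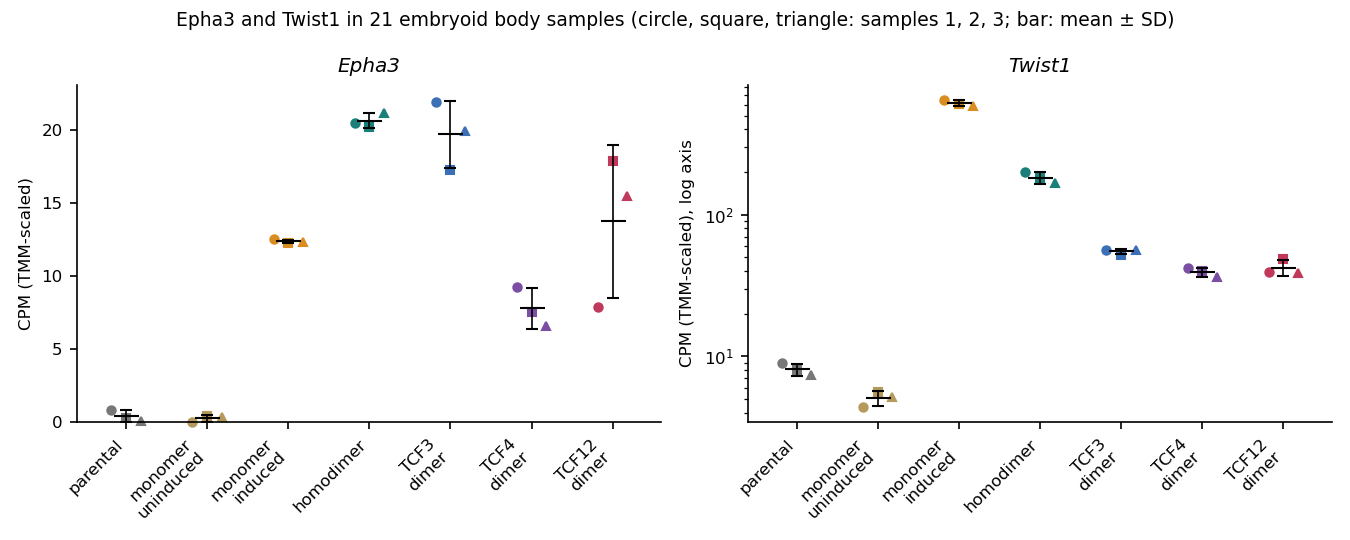
Epha3 (left, linear axis) and Twist1 (right, log axis) in CPM for each of the 21 samples, with circles, squares and triangles for samples 1, 2 and 3 and bars for mean ± SD. Epha3 is highest in the homodimer and in the TCF3-labelled libraries, whereas Twist1 is highest in the induced monomer, at 613.0 CPM.

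Against the uninduced monomer line, the pooled count rate of Epha3 was 40.2 times as high in the induced monomer (95% exact interval for counting error alone, 20.2 to 93.8). It was 66.9 times as high in the homodimer (33.7 to 156) and 64.1 times in the TCF3-labelled libraries (32.4 to 149). In the TCF4 dimer line it was 24.9 times as high (12.5 to 58.3), and in the TCF12-labelled libraries 46.1 times (23.2 to 107), or 54.1 times without their sample 1 (27.2 to 126). The ratios against the parental line were 29.2, 48.6, 46.6, 18.1 and 33.5 in the same order. They rest much on its sample 1, which holds most of the 12 counts, and without that sample they were 59.2, 98.6, 94.5, 36.8 and 68.0. By fitted log2 fold change Epha3 ranked 6 of 14311 tested genes in the induced against the uninduced monomer, and 6, 15, 18 and 18 in the homodimer and the TCF3-labelled, TCF4 dimer and TCF12-labelled libraries against the same control. These comparisons share their control samples, and the ratios and ranks only describe the rise by which the gene was chosen.

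The differences of Epha3 among the induced lines were smaller and did not follow the level of Twist1. In edgeR's quasi-likelihood test with Benjamini-Hochberg adjustment over the 14311 genes, Epha3 was higher in the homodimer than in the induced monomer by a log2 fold change of 0.74 ± 0.23 SE (adjusted p 0.033). It was higher in the TCF3-labelled libraries than in the induced monomer, by 0.67 ± 0.23 SE (adjusted p 0.045), and lower in the TCF4 dimer line, at -0.67 ± 0.25 SE (adjusted p 0.049). These 3 calls lie near the threshold. They were lost in 6, 13 and 14 of 21 fits that each left out 1 sample, with the largest adjusted p at 0.089, 0.15 and 0.19 over all alternatives. The heterodimers as a class were lower than the homodimer, at -0.68 ± 0.18 SE (adjusted p 0.014), and leaving out any of the 3 homodimer samples moved the adjusted p to between 0.054 and 0.066. Within this class, the TCF3-labelled samples overlapped the homodimer samples, with means of 19.7 and 20.6 CPM. The TCF3-labelled libraries stood above the TCF4 dimer line by 1.34 ± 0.23 SE (adjusted p 0.00041), a call kept in every alternative run. The TCF12-labelled libraries did not pass against the induced monomer (0.17 ± 0.24 SE, adjusted p 0.61) or against the TCF4 dimer line (0.84 ± 0.24 SE, adjusted p 0.059). Without their sample 1 the values were 0.44 (adjusted p 0.015) and 1.11 (adjusted p 1.1e-05).

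The 250 bases upstream of the RefSeq start of Epha3 hold no E-box. They are shown because TWIST1 dimers bind the motif CANNTG, searched on both strands, which is its own reverse complement. The window is chr16:63864176-63864425 on the minus strand (RefSeq, GRCm38.p6), printed 5′ to 3′ in the direction of the gene.
Epha3: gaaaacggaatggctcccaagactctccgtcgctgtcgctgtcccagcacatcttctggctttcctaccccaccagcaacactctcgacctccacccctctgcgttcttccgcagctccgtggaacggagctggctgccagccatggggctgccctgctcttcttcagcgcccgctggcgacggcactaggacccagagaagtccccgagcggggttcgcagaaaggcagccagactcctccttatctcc
Windows for 14 of 14 Eph receptor genes were matched by symbol, and 66.2% of 32851 windows of this length hold at least 1 CANNTG. No match says only that these letters are not in this window.

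Ephb2 and Ephb4, receptors of the B class, were higher in each of the 4 dimer lines than in either control and than in the induced monomer, and Epha2 was lower in each (plot of the other 9 receptors). Ephb4 lies on the plus strand at chr5:137350109-137378669 (GRCm38). Ephb4 samples stood at 76.4, 67.5 and 73.2 CPM in the parental line, at 67.2, 61.5 and 62.0 CPM in the uninduced monomer and 69.6, 77.9 and 66.3 CPM in the induced monomer. The homodimer samples stood at 125, 108 and 104 CPM, the TCF3-labelled libraries at 142, 121 and 128 CPM, the TCF4 dimer samples at 140, 131 and 139 CPM and the TCF12-labelled libraries at 137, 133 and 119 CPM. The 12 dimer samples did not overlap the other 9. The share of all genes that separate in this way was not counted, here or for the receptors below. The log2 fold changes of Ephb4 over the uninduced monomer were 0.82 ± 0.09 SE in the homodimer, 1.04 ± 0.09 SE and 1.10 ± 0.09 SE in the TCF3-labelled and TCF4 dimer libraries and 1.03 ± 0.09 SE in the TCF12-labelled libraries, with a largest adjusted p of 1.3e-06 (edgeR). They were 0.63, 0.85, 0.91 and 0.84 against the parental line, with a largest adjusted p of 7.2e-05, and against the induced monomer 0.65, 0.87, 0.94 and 0.86, with a largest adjusted p of 2.7e-05. In the induced against the uninduced monomer, Ephb4 differed by 0.17 ± 0.09 SE (adjusted p 0.63).

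**Figure D2:**
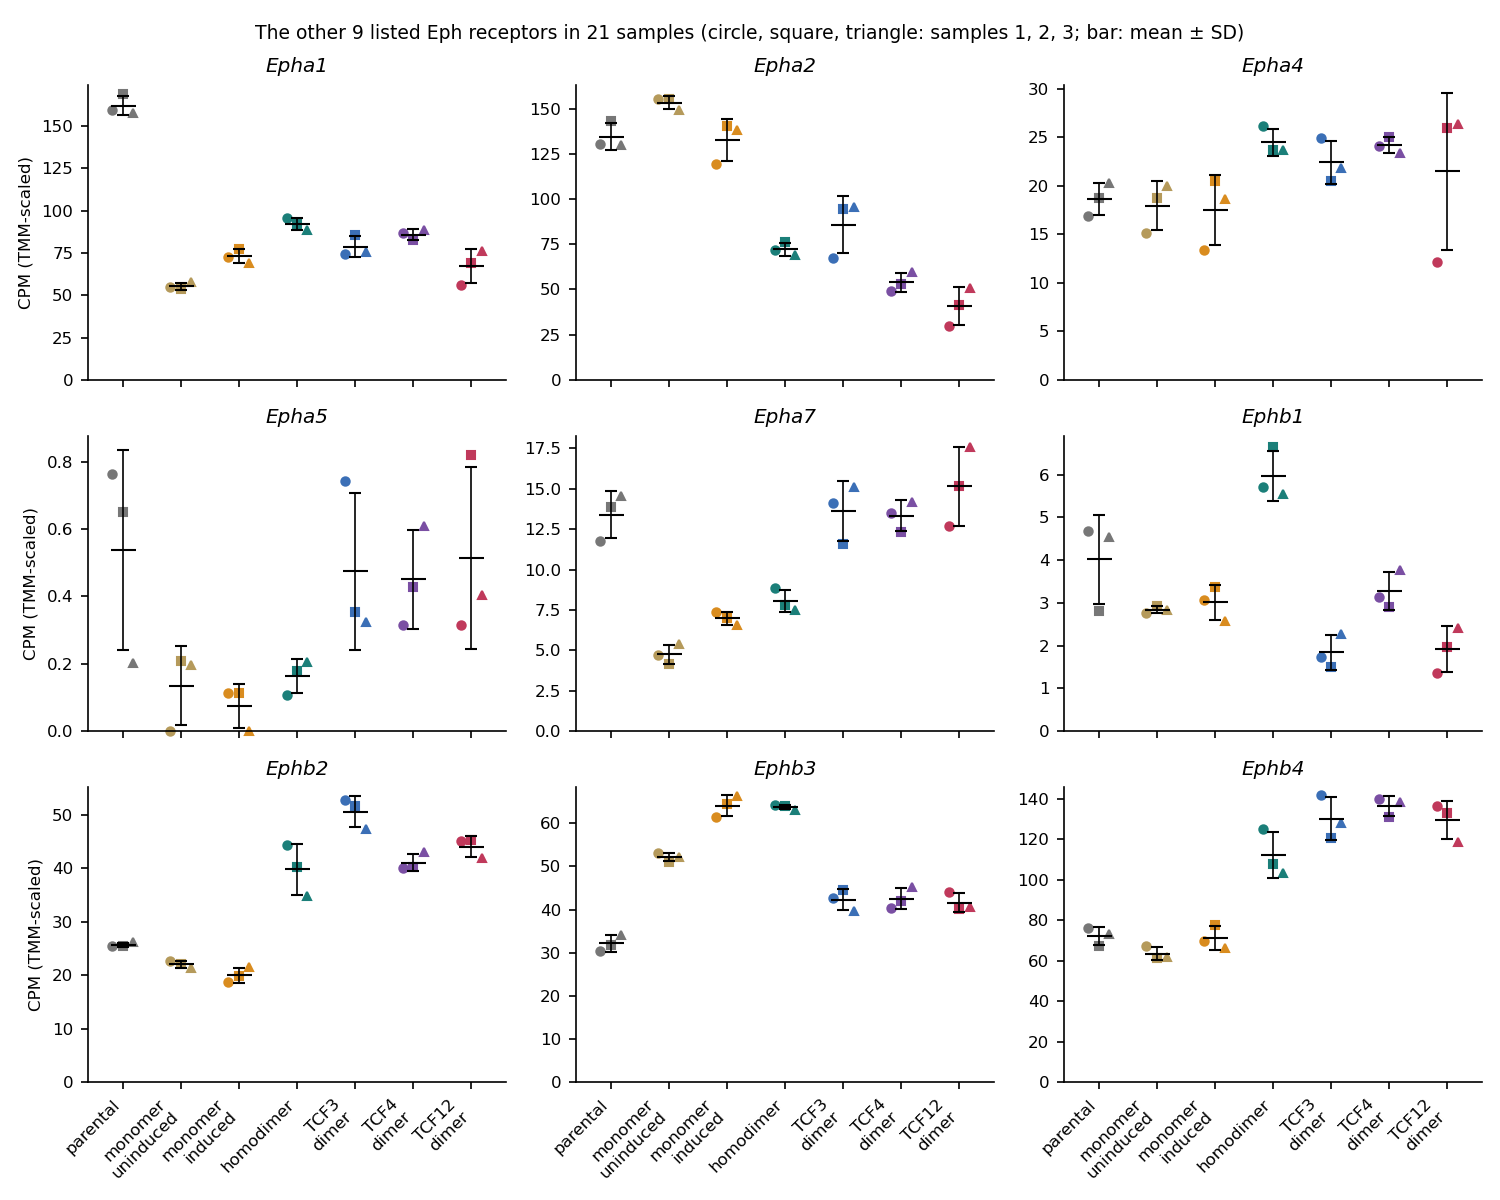
CPM of the 9 listed Eph receptors other than Epha3 in each of the 21 samples, with 1 panel per gene, linear axes from 0, symbols for samples 1 to 3 and bars for mean ± SD. Ephb2 and Ephb4 are high in the 4 dimer lines and Epha2 is low there, while Epha1 is highest in the parental line.

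Ephb2, which takes part in axon guidance and in cell sorting in the gut, was raised in the dimers as well. It lies on the minus strand at chr4:136647539-136835988. Its samples stood at 25.4, 25.5 and 26.1 CPM in the parental line, at 22.6, 22.2 and 21.4 CPM in the uninduced monomer and 18.7, 19.8 and 21.5 CPM in the induced monomer. The homodimer samples stood at 44.4, 40.1 and 34.9 CPM, with 52.7, 51.5 and 47.3 CPM in the TCF3-labelled libraries, 40.0, 40.2 and 42.9 CPM in the TCF4 dimer and 41.8 to 45.2 CPM in the TCF12-labelled libraries. Again no dimer sample overlapped the other 9. The log2 fold changes in the same order were 0.85, 1.20, 0.90 and 1.00 against the uninduced monomer (largest adjusted p 5.4e-07, edgeR) and 0.63, 0.98, 0.68 and 0.78 against the parental line (largest adjusted p 4.5e-05). The induced monomer was lower than the parental line in Ephb2, at -0.36 ± 0.09 SE (adjusted p 0.0064), a call lost without a filter on low counts. The TCF3-labelled libraries exceeded the TCF4 dimer line by 0.30 ± 0.08 SE (adjusted p 0.013), a call lost without sample 2 of the TCF3-labelled libraries and without a filter on low counts.

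Epha2, a receptor of epithelial cells and of the early embryo, moved the other way. It lies on the plus strand at chr4:141301240-141329384. Its samples stood at 131, 143 and 130 CPM in the parental line, at 156, 155 and 149 CPM in the uninduced monomer and 119, 141 and 138 CPM in the induced monomer. The homodimer samples stood at 71.9, 76.1 and 68.8 CPM, with 67.5, 94.7 and 95.5 CPM in the TCF3-labelled libraries, 49.4, 52.8 and 59.9 CPM in the TCF4 dimer and 29.7, 41.6 and 50.8 CPM in the TCF12-labelled libraries. The 12 dimer samples all lay below the other 9. Epha2 fell by 1.08, 0.84, 1.50 and 1.91 on the log2 scale in that order (largest adjusted p 0.00022, edgeR) against the uninduced monomer, and against the parental line by 0.90, 0.65, 1.32 and 1.72 (largest adjusted p 0.0022). The TCF3-labelled libraries kept more Epha2 than the TCF4 dimer line, by 0.67 ± 0.15 SE (adjusted p 0.003), and than the TCF12-labelled libraries, by 1.07 ± 0.15 SE (adjusted p 5.7e-05). The second of these calls was lost when only the compared groups were fitted. The heterodimers as a class did not pass against the homodimer (-0.33, adjusted p 0.073) and passed without sample 1 of the TCF12-labelled libraries (-0.28, adjusted p 0.0085). Across the 12 comparisons of a dimer line with a control or with the induced monomer, the calls of Ephb2, Ephb4 and Epha2 were kept in each of 28 alternatives. Over the 21 samples, which share 7 groups, Pearson's r of log2(CPM + 0.5) was 0.94 between Ephb2 and Ephb4 and -0.88 between Epha2 and Ephb4.

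The upstream windows of these 3 genes are shown because the genes moved in each dimer line. The capitals mark CANNTG. The window of Ephb2 is chr4:136836013-136836262 on the minus strand, that of Ephb4 chr5:137349859-137350108 on the plus strand and that of Epha2 chr4:141300971-141301220 on the plus strand (RefSeq, GRCm38.p6).
Ephb2: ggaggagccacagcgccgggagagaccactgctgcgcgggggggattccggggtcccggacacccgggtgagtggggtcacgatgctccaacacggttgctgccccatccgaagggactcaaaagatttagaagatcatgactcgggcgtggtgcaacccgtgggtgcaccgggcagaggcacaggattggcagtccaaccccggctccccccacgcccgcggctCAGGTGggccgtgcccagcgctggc
Ephb4: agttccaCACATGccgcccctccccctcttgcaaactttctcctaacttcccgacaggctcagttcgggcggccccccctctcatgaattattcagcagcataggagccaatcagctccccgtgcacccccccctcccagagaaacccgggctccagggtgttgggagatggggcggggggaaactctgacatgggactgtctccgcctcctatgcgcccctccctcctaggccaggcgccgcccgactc
Epha2: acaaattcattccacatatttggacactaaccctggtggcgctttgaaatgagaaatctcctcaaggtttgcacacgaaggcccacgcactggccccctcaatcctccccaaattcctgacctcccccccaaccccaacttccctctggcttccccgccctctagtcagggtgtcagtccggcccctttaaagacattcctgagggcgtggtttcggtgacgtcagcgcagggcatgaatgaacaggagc
The windows of Ephb2 and Epha2 do not end at a transcript start of GENCODE M21. The E-box of Ephb2, CAGGTG, starts at position -25 from the RefSeq start, and that of Ephb4, CACATG, at position -243. Epha2, which was lower, has none in its window, and neither has Epha3, which was raised. CACCTG, which reads CAGGTG on the other strand, is in 17.2% of all windows. None of the 4 windows shown holds CATATG, which is in 3.46% of all windows.

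Counted over the family against the uninduced monomer, fewer receptors passed in the induced monomer than in the dimers, as did fewer of all tested genes. The dimers also differ from that control in cell line. Of the 9 listed receptors other than Epha3, 8 passed the filter on low counts and Epha5 did not. Epha3 itself passed it through the induced groups. Induced against uninduced monomer, 2 of the 8 rose and 0 fell, where 1.52% of all tested genes were higher and 0.475% lower. Against the uninduced monomer, 6 rose and 1 fell in the homodimer (11.2% of all genes higher, 11.6% lower), and 4 rose and 2 fell in each of the TCF3-labelled (15.7% and 13.2%), TCF4 dimer (16.8% and 15.5%) and TCF12-labelled libraries (20% and 17%). Their median log2 fold change was 0.12 in the induced monomer and 0.74, 0.41, 0.52 and 0.27 in the dimers in that order, against medians of all tested genes from -0.02 to 0.04. Against the parental line, which these comparisons share as a control, 1 rose and 3 fell in the induced monomer (10.8% and 9.22%), 3 rose and 3 fell in the homodimer (4.81% and 4.02%), in the TCF3-labelled libraries (16.3% and 12%) and in the TCF12-labelled libraries (15.5% and 11.5%), and 3 rose and 2 fell in the TCF4 dimer line (7.18% and 5.67%). The control groups also differed, with 1 receptor higher and 2 lower in the uninduced monomer than in the parental line (10.5% and 9.43%). Without sample 1 of the TCF12-labelled libraries, 1 was higher and 4 were lower there, where 5312 of 14423 genes passed. The added calls were Ephb2 (-0.23, adjusted p 0.044, edgeR) and Ephb4 (-0.20, adjusted p 0.042).

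**Figure D3:**
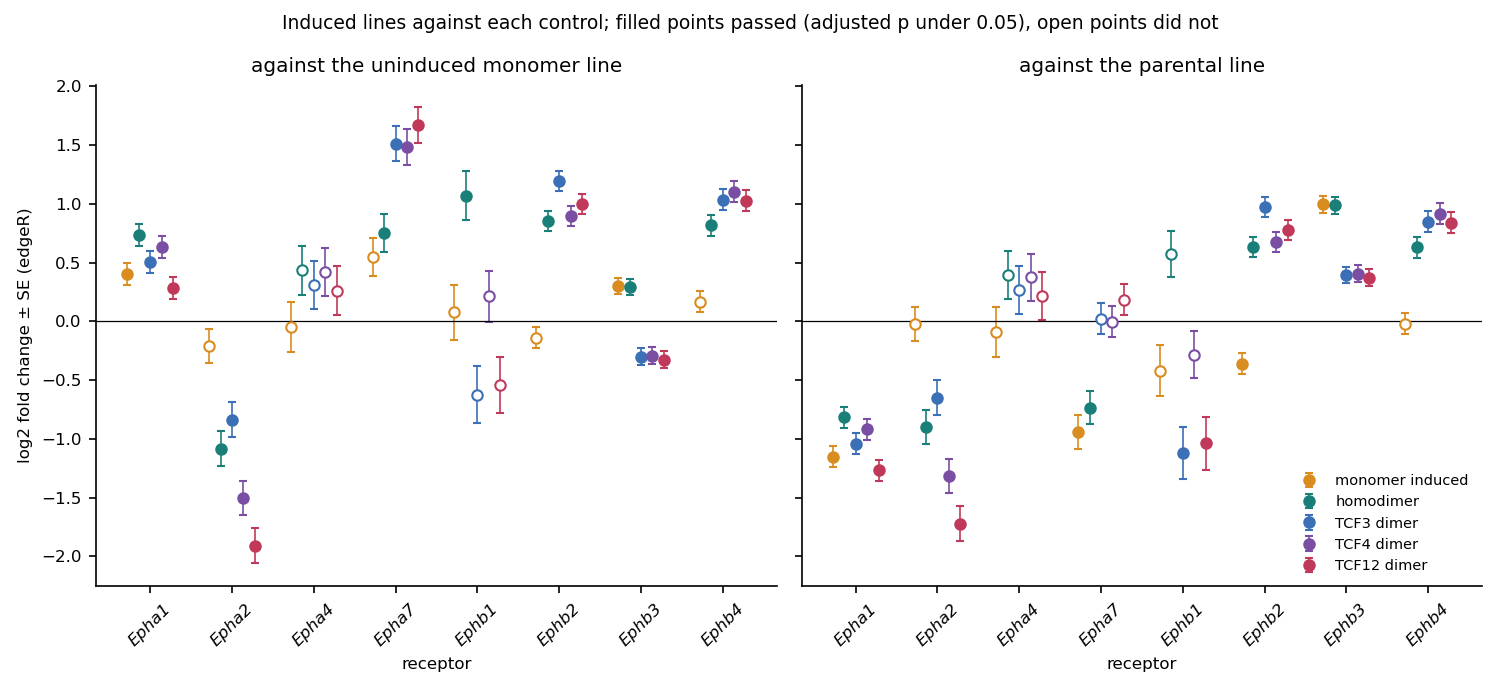
Log2 fold changes ± SE (edgeR, fit of 21 samples) of the 8 tested receptors other than Epha3 in the 5 induced groups against the uninduced monomer (left) and the parental line (right), with filled points for an adjusted p under 0.05. Ephb2 and Ephb4 are filled and above 0, and Epha2 filled and below 0, for the 4 dimers in both panels. Among the values that change sign between the panels are Epha1, Ephb3 in the heterodimers, and Epha7 in the induced monomer and homodimer.

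Against the induced monomer, 4 receptors were higher and 1 lower in the homodimer (9.15% of all genes higher, 9.31% lower), 3 higher and 3 lower in the TCF3-labelled libraries (12.7% and 9.36%) and in the TCF12-labelled libraries (18.1% and 15.5%), and in the TCF4 dimer line 3 higher and 2 lower (14.5% and 13%). The heterodimers against the homodimer gave 2 higher and 3 lower (7.99% and 6.04%). Among the heterodimers, 2 were higher and 1 lower in the TCF3-labelled libraries than in the TCF4 dimer line (11.8% and 7.9%), 0 higher and 1 lower in the TCF12-labelled libraries than in the TCF4 dimer line (2.07% and 1.17%), and 1 higher and 0 lower in the TCF3-labelled libraries than in the TCF12-labelled ones (9.71% and 9.06%). The common biological coefficient of variation was 0.12 with sample 1 of the TCF12-labelled libraries and 0.0539 without it. Without it, 3 rose in the induced against the uninduced monomer (6.17% of all genes passed), 7 rose and 1 fell in the homodimer (37.8%), 5 rose and 3 fell in the TCF3-labelled libraries (47.6%), and 5 rose and 2 fell in the TCF4 dimer (50.6%) and TCF12-labelled libraries (48.2%), all against the uninduced monomer.

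Ephb3, another receptor of the B class, separated the homodimer from the heterodimers. It lies on the plus strand at chr16:21204755-21223305. Its samples stood at 30.4, 31.9 and 34.2 CPM in the parental line, at 53.0, 51.1 and 52.3 CPM in the uninduced monomer, 61.4, 64.6 and 66.3 CPM in the induced monomer and 64.2, 63.9 and 63.2 CPM in the homodimer. The 9 heterodimer samples lay between 39.7 and 45.1 CPM, below every sample of the monomer line and the homodimer and above every parental sample. The homodimer was higher than the uninduced monomer by 0.29 ± 0.07 SE (adjusted p 0.0044, edgeR). The heterodimers were lower than the homodimer by a log2 fold change of -0.60 ± 0.06 SE (adjusted p 3.8e-07, edgeR). The direction in the heterodimers depended on the control. Against the uninduced monomer Ephb3 was lower, by -0.30, -0.29 and -0.33 in the TCF3-labelled, TCF4 dimer and TCF12-labelled libraries (largest adjusted p 0.0032), and against the parental line it was higher, by 0.39, 0.40 and 0.37 (largest adjusted p 0.00087). Without a filter on low counts the calls against the uninduced monomer were lost in the homodimer (adjusted p 0.057), the TCF3-labelled libraries (0.082) and the TCF4 dimer line (0.097). Both calls of the TCF12-labelled libraries were lost when only the compared groups were fitted, with an adjusted p of 0.085 against the uninduced monomer and 0.13 against the parental line. The rise in the induced over the uninduced monomer, 0.30 ± 0.07 SE (adjusted p 0.028), was lost in 6 of 21 fits that each left out 1 sample, when any sample of either group was left out, and without a filter on low counts (adjusted p 0.33).

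Ephb1, a receptor of neural and vascular cells, was highest in the homodimer. It lies on the minus strand at chr9:101922128-102354693. The homodimer samples stood at 5.72, 6.64 and 5.56 CPM, against 2.77, 2.93 and 2.83 CPM in the uninduced monomer and 4.69, 2.82 and 4.54 CPM in the parental line. Samples of the TCF3-labelled libraries stood at 1.74, 1.50 and 2.28 CPM and the TCF12-labelled libraries at 1.36, 1.97 and 2.42 CPM, with the TCF4 dimer between them and the homodimer at 3.15, 2.91 and 3.77 CPM. The homodimer was higher than the uninduced monomer by 1.07 ± 0.21 SE (adjusted p 0.00084), and the heterodimers as a class were lower than the homodimer by -1.39 ± 0.16 SE (adjusted p 5.7e-06). In the fit of 21 samples the homodimer did not pass against the parental line. It passed there without sample 1 of the TCF12-labelled libraries (0.58, adjusted p 0.024, edgeR) and when only the compared groups were fitted (0.58, adjusted p 0.026). Against the parental line Ephb1 was lower in the TCF3-labelled libraries, at -1.12 ± 0.22 SE, and in the TCF12-labelled ones, at -1.04 ± 0.22 SE (adjusted p 0.00081 and 0.0021), and the second was lost when only the compared groups were fitted. Its lower value in the TCF12-labelled libraries than in the induced monomer (-0.62 ± 0.24 SE, adjusted p 0.0495) was lost in 18 of 21 fits that left out 1 sample, among them the fit without their sample 1 (-0.44, adjusted p 0.165).

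Epha1, an epithelial receptor, was highest in the parental line. The gene is at chr6:42358487-42373268, minus strand. The parental samples stood at 160, 169 and 158 CPM and every other sample lay between 53.7 and 95.6 CPM. Each of the other 6 groups was lower than the parental line, by -1.55 ± 0.09 SE in the uninduced monomer and by -0.82 to -1.27 in the induced lines (largest adjusted p 3.2e-06, edgeR). Within the monomer line it rose on induction, from 54.7, 53.7 and 57.6 CPM to 72.8, 77.3 and 69.1 CPM, by 0.40 ± 0.09 SE (adjusted p 0.025). That call was lost in 5 of the 6 fits that left out a sample of the monomer line, and with scaling to library size alone (adjusted p 0.097). Each dimer line also exceeded the uninduced monomer, by 0.28 to 0.73, and the lowest of these, in the TCF12-labelled libraries, was lost in 4 of 21 fits that left out 1 sample and reached 0.40 without sample 1 of the TCF12-labelled libraries (adjusted p 2.1e-05). Epha1 shares 236 exon bases with Zyx, a gene on the opposite strand with a mean of 111 CPM. Whether the authors' counting used strand is not given in the sources used here, so reads of the shared bases may not be told apart. The summed level of 10 primitive streak markers was highest in the parental line too, at 241 to 288 CPM against 24.1 to 52.8 CPM elsewhere, and its part in the values of Epha1 was not tested.

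Epha7, a receptor of neural and limb patterning, was low in both states of the monomer line and in the homodimer. The gene is at chr4:28813131-28967499, plus strand. Its samples stood at 11.8, 13.9 and 14.5 CPM in the parental line, at 4.72, 4.18 and 5.37 CPM in the uninduced monomer, 7.40, 6.98 and 6.56 CPM in the induced monomer and 8.85, 7.81 and 7.51 CPM in the homodimer. The 9 heterodimer samples lay between 11.6 and 17.6 CPM and overlapped the parental samples. The heterodimers were higher than the homodimer by 0.80 ± 0.12 SE (adjusted p 7.7e-05) and than the uninduced monomer by 1.51, 1.48 and 1.67 in the TCF3-labelled, TCF4 dimer and TCF12-labelled libraries (largest adjusted p 3.8e-07). Their differences from the parental line were 0.02, 0.00 and 0.18, each with an SE of 0.13, and did not pass. The direction in the homodimer depended on the control. It was higher than the uninduced monomer (adjusted p 0.0017, edgeR) and lower than the parental line (adjusted p 0.0015). The induced monomer was also lower than the parental line (adjusted p 8.4e-05). On induction of the monomer Epha7 differed by 0.55 ± 0.17 SE (adjusted p 0.12), which passed without sample 1 of the TCF12-labelled libraries (0.54, adjusted p 0.048).

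Epha4, the receptor that binds ephrins of both classes, passed in 0 of 19 comparisons with edgeR and 0 with DESeq2 over all 21 samples, and had an unadjusted p under 0.05 in 2 with edgeR. The gene is at chr1:77367185-77515088, minus strand. Its samples ranged from 13.4 to 20.5 CPM in both controls and the induced monomer, from 20.5 to 26.1 CPM in the homodimer and the TCF3-labelled and TCF4 dimer libraries, and stood at 12.2, 25.9 and 26.4 CPM in the TCF12-labelled libraries. Without sample 1 of the TCF12-labelled libraries it was higher in each dimer line than in the uninduced monomer, by 0.43, 0.29, 0.41 and 0.52 for the homodimer and the TCF3-labelled, TCF4 dimer and TCF12-labelled libraries (largest adjusted p 0.030), and than in the induced monomer, by 0.49, 0.36, 0.47 and 0.59 (largest adjusted p 0.010). Against the parental line it then passed in the homodimer, the TCF4 dimer and the TCF12-labelled libraries, by 0.39, 0.37 and 0.48, and not in the TCF3-labelled libraries (0.25, adjusted p 0.055). Epha5, a neural receptor at chr5:84054761-84417382 on the minus strand, did not exceed 0.82 CPM in any sample and was not tested.

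Per kilobase of exon, Ephb4 took a larger share of the family in the dimers than in the controls, and Epha2 a smaller one (plot of receptor shares). Of the summed CPM per kilobase of all 14 Eph receptors, Epha1 made up 40.7% and Epha2 28.4% in the parental line, and Ephb4 15.4%. In the uninduced monomer Epha2 led with 42.9%, before Epha1 with 18.4% and Ephb4 with 17.9%. In the dimer lines Ephb4 led, with 28.0% in the homodimer, 32.2% in the TCF3-labelled libraries, 35.6% in the TCF4 dimer and 38.0% in the TCF12-labelled libraries, and Epha2 stood between 11.7% and 21.1%. In the homodimer Epha1 was close behind Ephb4 at 27.2%. The samples overlapped there, at 26.8% to 27.6% for Epha1 and 27.0% to 29.6% for Ephb4. Epha3 stayed a minor member, with 0.049% and 0.041% in the controls, 1.77% in the induced monomer and 1.09% to 2.76% in the dimers. With the longest transcript in place of the exon union, Epha1 led in the homodimer, with 27.4% against 25.1% for Ephb4. The leading gene of the other 6 groups was the same with both lengths. These shares are descriptions of group means, and no test was made on them.

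**Figure D4:**
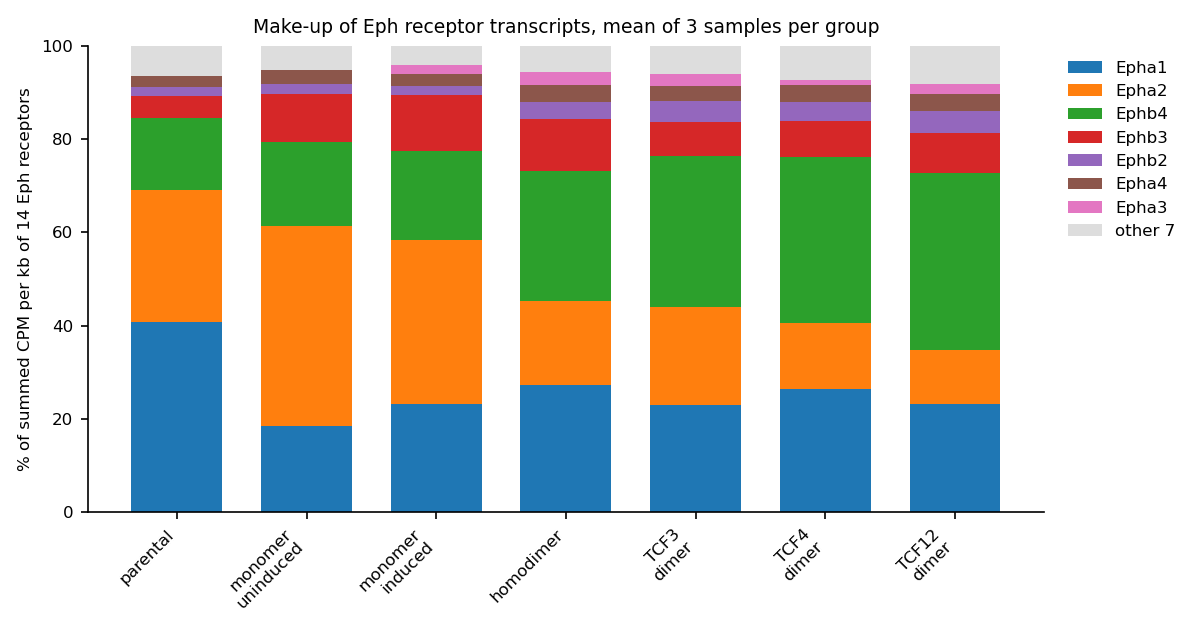
Share of each Eph receptor in the summed CPM per kilobase of exon of 14 receptors (percent, 0 to 100), as the mean of 3 samples per group. Ephb4 makes up 15.4% in the parental line and 38.0% in the TCF12-labelled libraries and Epha2 28.4% and 11.7%.

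Of the other 4 Eph receptors, Epha6 and Epha10 did not pass the filter on low counts. Ephb6, a receptor without kinase activity, had group means of 5.68 and 4.92 CPM in the uninduced and induced monomer and 7.70 CPM in the homodimer, against 11.4 CPM in the parental line and 11.0 to 13.0 CPM in the heterodimers. The heterodimers exceeded the homodimer in Ephb6 by 0.61 ± 0.16 SE (adjusted p 0.011), and between the control groups it differed by -1.004 ± 0.20 SE (uninduced minus parental, adjusted p 0.0012). Epha8 had group means of 7.20 and 7.30 CPM in the controls and was lower in the TCF3-labelled libraries, at 3.23 CPM, and the TCF12-labelled ones, at 3.65 CPM, by -1.18 and -0.98 against the uninduced monomer (adjusted p 8.8e-05 and 0.00034). Its means were 4.46 CPM in the induced monomer, 5.57 CPM in the homodimer and 5.72 CPM in the TCF4 dimer. The induced monomer was lower in Epha8 than the parental line, at -0.69 ± 0.18 SE (adjusted p 0.010), and did not pass against the uninduced monomer (-0.71 ± 0.19 SE, adjusted p 0.056), where it passed without sample 1 of the TCF12-labelled libraries (-0.71, adjusted p 0.010).

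Levels of the ligands differed between lines too, and 8 of 8 ephrins passed the filter (plot of ephrins by sample). On induction of the monomer 0 of 8 passed in edgeR and 0 in DESeq2, and 1, Efnb2, had an unadjusted p under 0.05 in edgeR, where 1.52% of all tested genes passed as higher and 0.475% as lower. Against the uninduced monomer, 3 were higher and 2 lower in the homodimer (11.2% and 11.6% of all genes), and 3 higher, 2 lower for the TCF4 dimer (16.8% and 15.5%). The count was 4 higher and 1 lower in the TCF3-labelled libraries (15.7% and 13.2%) and in the TCF12-labelled libraries (20% and 17%). Efnb1, a membrane-spanning ligand of EphB receptors, differed widely between lines. Its samples stood at 6.21, 5.64 and 7.06 CPM in the parental line, at 22.0, 25.3 and 23.8 CPM in the uninduced monomer and 5.07, 6.10 and 5.86 CPM in the homodimer. They stood at 36.6, 38.9 and 36.4 CPM in the TCF3-labelled libraries, 11.6 to 14.7 CPM in the TCF4 dimer and 31.5, 30.9 and 22.6 CPM in the TCF12-labelled libraries. The homodimer overlapped the parental line and lay below every other group, and the heterodimers as a class were higher than it by 2.08 ± 0.12 SE (adjusted p 1.9e-09). The heterodimer lines were unlike each other. The TCF4 dimer was lower than the uninduced monomer (adjusted p 4.05e-05, edgeR), as was the homodimer, and differed from the TCF3-labelled libraries (adjusted p 6.8e-08).

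Efnb2, the ephrin-B ligand of EPHB4, was highest in the homodimer, with samples at 141, 124 and 132 CPM. The parental samples stood at 91.9, 82.0 and 83.7 CPM and the uninduced monomer samples at 56.3, 56.7 and 63.5 CPM. Samples of the TCF3-labelled libraries stood at 55.3, 52.0 and 52.5 CPM and the TCF12-labelled libraries at 36.1, 68.3 and 73.0 CPM. The TCF4 dimer was higher than these, at 78.4 ± 4.1 CPM. Its difference from the TCF3-labelled libraries passed (adjusted p 0.017, edgeR), a call lost in 5 of 21 fits that left out 1 sample and with library size only. Against the uninduced monomer the TCF4 dimer passed only in some alternatives, among them the fit without sample 1 of the TCF12-labelled libraries (0.41, adjusted p 2.1e-06). The heterodimers as a class were lower than the homodimer by -1.07 ± 0.12 SE (adjusted p 4.7e-06). The induced monomer samples stood at 77.8, 80.8 and 80.2 CPM, and the difference from the uninduced monomer did not pass (0.43 ± 0.16 SE, adjusted p 0.27). It passed without sample 1 of the TCF12-labelled libraries (0.43, adjusted p 2.8e-05). Efnb2 was higher in the homodimer than in the parental line, by 0.62 ± 0.16 SE (adjusted p 0.014), a call lost in 3 of 21 fits that left out 1 sample and with library size only (adjusted p 0.052). In the TCF12-labelled libraries it was lower than in the parental line by -0.53 ± 0.16 SE (adjusted p 0.019), and by -0.28 without their sample 1 (adjusted p 0.0017). That call was lost when only the compared groups were fitted (adjusted p 0.31) and without sample 1 of the parental line (adjusted p 0.066). Against the induced monomer the TCF12-labelled libraries gave -0.42 (adjusted p 0.047), and -0.17 without their sample 1 (adjusted p 0.052). Efna2 was higher and Efna3 lower in each dimer line than in the uninduced monomer, by 1.34, 0.44, 1.11 and 1.17 for Efna2 and by -1.32, -0.75, -1.08 and -1.06 for Efna3 in the homodimer and the TCF3-labelled, TCF4 dimer and TCF12-labelled libraries (largest adjusted p 0.031 and 0.00056). The call of Efna2 in the TCF3-labelled libraries was lost in 5 of 21 fits that left out 1 sample, and it was at -0.07 against the parental line (adjusted p 0.77). Efna3 was higher in the uninduced monomer than in the parental line, by 0.62 ± 0.15 SE (adjusted p 0.0045). Compared with the parental line, Efna3 was lower in the homodimer, at -0.70 (adjusted p 0.0065), and in the TCF12-labelled libraries, at -0.44 (adjusted p 0.041), the second of which was lost in 5 of 21 fits that left out 1 sample. Its values of -0.13 in the TCF3-labelled libraries and -0.45 in the TCF4 dimer did not pass (adjusted p 0.59 and 0.055), and the second passed without sample 1 of the TCF12-labelled libraries (-0.45, adjusted p 0.014). Efna5 was lower in the uninduced monomer than in the parental line, by -0.91 ± 0.20 SE (adjusted p 0.0028), and higher in each dimer than in the uninduced monomer, by 0.75 to 1.51. Efnb3 was higher in the heterodimers than in the homodimer by 0.67 ± 0.16 SE (adjusted p 0.0067). Efna4 passed in 0 of 19 comparisons with edgeR and with DESeq2 (3 at an unadjusted p under 0.05 with edgeR), and Efna1 passed in the TCF12-labelled libraries against the uninduced monomer (0.97, adjusted p 0.028) and not without sample 1 (0.55, adjusted p 0.11).

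**Figure D5:**
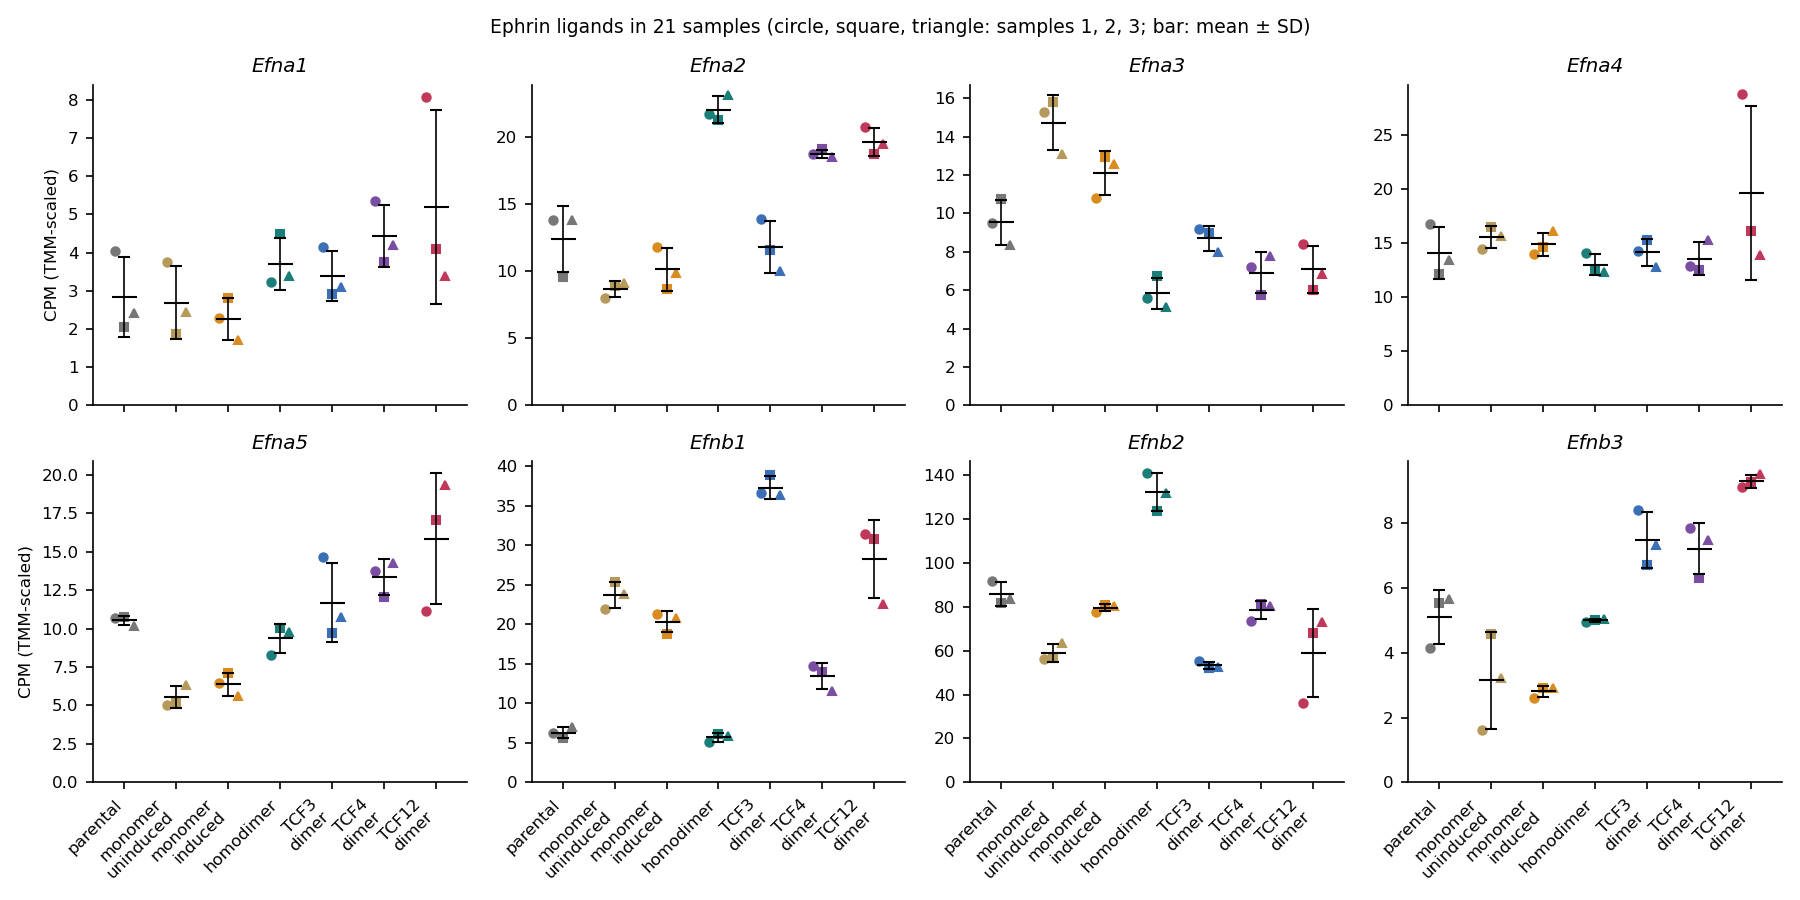
CPM of the 8 ephrin ligands in each of the 21 samples, with 1 panel per gene, linear axes from 0, symbols for samples 1 to 3 and bars for mean ± SD. Efnb1 is near its parental level in the homodimer and highest in the TCF3-labelled libraries, and Efnb2 is highest in the homodimer.

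Of 44 listed genes that carry or end Eph signals inside the cell, 43 were tested. Induced against uninduced monomer, 1 passed, where 1.52% of all tested genes were higher and 0.475% lower. This was Fyn, a Src-family kinase, which rose from 32.5 ± 0.8 to 39.7 ± 1.6 CPM, by 0.29 ± 0.07 SE (adjusted p 0.046). Compared with the uninduced monomer, 11 were higher and 3 lower in the homodimer (11.2% of all genes higher, 11.6% lower) and 13 and 6 in the TCF3-labelled libraries (15.7% and 13.2%). The TCF4 dimer gave 13 and 2 (16.8% and 15.5%) and the TCF12-labelled libraries 12 and 4 (20% and 17%). The list medians lay between 0.09 and 0.20. Against the parental line these counts were 4 and 2 in the homodimer (4.81% and 4.02%), 12 and 8 in the TCF3-labelled libraries (16.3% and 12%), 7 and 1 in the TCF4 dimer (7.18% and 5.67%), and 7 and 4 in the TCF12-labelled libraries (15.5% and 11.5%), with medians between -0.01 and 0.11. Arhgef15, which acts downstream of EphB receptors, and the adaptor Nck2 were named from the 43 after their values had been seen. Their adjusted p-values are therefore no independent support, and the lower genes counted above are not named. Arhgef15 had means of 8.19 and 7.08 CPM in the parental and uninduced monomer lines and 11.6 to 15.5 CPM in the dimers. Its log2 fold changes against the uninduced monomer were 0.90, 1.13, 0.71 and 0.84 in the homodimer and the TCF3-labelled, TCF4 dimer and TCF12-labelled libraries (largest adjusted p 0.0011), and 0.69, 0.92, 0.50 and 0.62 against the parental line (largest adjusted p 0.029). Nck2 was higher by 0.40, 0.55, 0.51 and 0.58 against the uninduced monomer and by 0.34, 0.48, 0.44 and 0.52 against the parental line (largest adjusted p 0.017).

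The genes most like Epha3 over the 21 samples were ranked by Pearson's r of log2(CPM + 0.5) among 14098 tested genes with a group mean of at least 1 CPM. They were Cd34 (r = 0.97), a surface protein of blood vessel and blood progenitor cells, Dusp15 (0.97), Iffo2 (0.96), Tns1 (0.96) and Plcd1 (0.96). The points share 7 groups, so these are descriptions. Cd34 had means of 5.13 and 5.86 CPM in the parental and uninduced monomer lines, 75.4 CPM in the induced monomer and 58.7 to 146 CPM in the dimers. Of the other listed receptors Ephb4 had the highest r, at rank 324 (r = 0.70). Twist1 was at rank 101 (r = 0.81).

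Markers of other cell types differed between the groups as well. The summed level of 8 hemangiogenic markers ran from 27.2 to 32.9 CPM in the control samples, 102 to 104 CPM in the induced monomer, 131 to 139 CPM in the homodimer and 81.9 to 210 CPM in the heterodimer samples. Of these 8, 1 passed in the induced against the uninduced monomer, and this was Cd34, at 5.86 ± 1.29 CPM in the uninduced and 75.4 ± 3.14 CPM in the induced monomer (log2 fold change 3.68 ± 0.15 SE, adjusted p 1.3e-11, edgeR). The 7 markers other than Cd34 summed to 22.0 to 28.0 CPM in the control samples, 25.7 to 30.04 CPM in the induced monomer, 21.3 to 24.2 CPM in the homodimer and 28.2 to 30.5 CPM in the TCF4 dimer. In the TCF3-labelled libraries these 7 ran from 50.2 to 62.8 CPM and in the TCF12-labelled libraries from 41.4 to 43.8 CPM. The sum without Cd34 was taken after the values had been seen. None of the 8 was at 0 throughout a group. The summed level of 12 mesenchymal markers was alike in the controls, the induced monomer and the homodimer, at 28.9 to 43.3 CPM, and ran from 79.7 to 207 CPM in the heterodimers, with Meox2 at 0 in both controls and Hand2 at 0 in the uninduced monomer. Of the 10 primitive streak markers, Mesp1 was at 0 in the homodimer. On induction of the monomer 1 of the 9 that were tested passed, and this was Fgf8, a growth factor of the primitive streak, at 3.74 ± 0.50 CPM in the uninduced and 1.64 ± 0.21 CPM in the induced monomer, lower by -1.17 ± 0.22 SE on the log2 scale (adjusted p 0.0051). The primitive endoderm markers (10 genes) summed to 2563 to 3016 CPM in the monomer line, 1825 to 2101 CPM in the TCF3-labelled libraries and 573 to 838 CPM in the other groups, with none at 0. The 8 naive pluripotency markers summed to 534 to 565 CPM in the uninduced monomer and 406 to 473 CPM in the induced monomer. They ran from 373 to 432 CPM in the parental line and 303 to 383 CPM in the homodimer and TCF3-labelled samples. TCF4 dimer and TCF12-labelled samples ran lower, at 172 to 242 CPM. The 8 neural markers summed to 283 to 398 CPM in the controls, the induced monomer and the homodimer, and 386 to 487 CPM in the heterodimers. Neurog2 was at 0 in the parental line, the induced monomer, the homodimer and the TCF4 dimer. The part of these cell types in the receptor values was not tested.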

How the data were processed

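RNA-seq counts per gene symbol were deposited by the authors as 1 table per sample, raw counts not scaled to a common total. TopHat2, HTSeq and FastQC and the builds mm10 and GRCm38 are named in the submitters' processing notes. Versions, the annotation and the strand setting are not given in the sources used here. In the files of 18 samples 25 symbols had become dates and in the 3 TCF12-labelled ones they had not, so rows were matched by their place in the list.

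All 21 samples entered 1 fit with a mean per group in edgeR 4.0.16 (limma 3.58.1, R 4.3.3). The fit used TMM factors, filterByExpr (a count of 10 and a total of 15; 14311 genes kept) and the quasi-likelihood F-test. Genes passed with a Benjamini-Hochberg adjusted p under 0.05, and SE was derived from F. The script was tested on simulated data. CPM were computed here from the counts and TMM factors. Groups and replicate numbers came from the sample titles. Ratios for Epha3 carry 95% exact intervals for counting error only, since amplified reads are not independent molecules.

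The receptors, gene lists and named-gene rule were chosen with earlier results of these data known. All 10 members, the other Eph receptors and the ephrins are named, with signalling and marker genes that passed in induced against uninduced monomer, the construct genes and the 5 genes most like Epha3. Arhgef15 and Nck2 were named outside that rule, after their values were seen. Positions and lengths came from GENCODE M21 (GRCm38), and upstream sequence from RefSeq GRCm38.p6. No protein sequence was used here. As alternatives, DESeq2 1.42.0, scaling by RLE or by library size alone, other filters, fits of only the compared groups, a replicate block, each sample left out in turn, and the longest transcript as the length were tried, with a marker sum without Cd34 added after the data were seen.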

Additional observations from a re-analysis of the deposited data

Results flagged for a closer look

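Ephb3, Efnb1 and Efnb2 passed in opposite directions in the homodimer and in some or all heterodimer lines against the same control. The heterodimers as a class differed from the homodimer in a direct test. The log2 fold change of the heterodimers against the homodimer was -0.597 for Ephb3 (SE 0.055, adjusted p 3.8e-07, edgeR), which was called higher in the homodimer and lower in the 3 heterodimers against the uninduced monomer. Without a filter on low counts the calls of Ephb3 were lost in the homodimer (adjusted p 0.057), the TCF3-labelled libraries (0.082) and the TCF4 dimer (0.097), and that in the TCF12-labelled libraries was lost when only the compared groups were fitted (0.085). The log2 fold change between the classes was 2.08 for Efnb1 (SE 0.12, adjusted p 1.9e-09), called lower in the homodimer and higher in the TCF3-labelled libraries against the uninduced monomer. Efnb1 was lower than that control in the TCF4 dimer too (adjusted p 4.05e-05, edgeR) and did not pass in the TCF12-labelled libraries. The log2 fold change between the classes was -1.07 for Efnb2 (SE 0.12, adjusted p 4.7e-06), called higher in the homodimer and lower in the TCF3-labelled and TCF12-labelled libraries against the parental line. The TCF4 dimer did not pass there. The homodimer call of Efnb2 was lost in 3 of 21 fits that left out 1 sample and with library size only (adjusted p 0.052), and the TCF12-labelled call when only the compared groups were fitted (adjusted p 0.31) and in 1 of the 21.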

How the results depend on the processing

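Of 9043 values of receptors and ephrins under 28 alternatives, 8669 kept their side of the threshold or, for Epha3 without a test, stayed near the main value. Another 242 lost the call, 127 gained it and 5 moved without a test (Epha3 against the parental line without its sample 1). Direction was followed only where a value was called or Epha3 had no test, and 0 of these reversed. Values that did not pass could change sign. Epha3 in the TCF12-labelled libraries against the induced monomer ran from -0.07 to 0.44. The number of the 9 listed receptors other than Epha3 that passed changed by more than 1.5 times as follows, and the cause was not tested. Induced against uninduced monomer it was 1 in place of 2 with library size only and with no filter on low counts. Uninduced monomer against parental it was 5 in place of 3 with library size only and 6 when only the groups compared were fitted. Heterodimers against homodimer it was 3 in place of 5 when only the groups compared were fitted. TCF12-labelled against TCF4 dimer it was 0 in place of 1 with library size only, 2 with no filter and 0 when only the groups compared were fitted, where 0 genes in all passed (464 in the fit of 21 samples, 901 with DESeq2). TCF3-labelled against TCF12-labelled it was 2 in place of 1 with library size only and 0 when only the groups compared were fitted.

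With 1 sample left out in turn, the same number ranged as follows. Against the uninduced monomer it was 0 to 3 in the induced monomer, 7 to 8 in the homodimer, 6 to 8 in the TCF3-labelled libraries, 6 to 7 in the TCF4 dimer and 5 to 7 in the TCF12-labelled libraries. Against the parental line it was 3 to 5 in the uninduced monomer, 4 in the induced monomer throughout, 6 to 8 in the homodimer, 6 in the TCF3-labelled libraries throughout, 5 to 6 in the TCF4 dimer and 6 to 7 in the TCF12-labelled libraries. Against the induced monomer it was 4 to 6 in the homodimer, 5 to 7 in the TCF3-labelled libraries, 5 to 7 in the TCF4 dimer and 5 to 6 in the TCF12-labelled libraries. Against the homodimer it was 3 to 7 in the heterodimers. Against the TCF4 dimer it was 1 to 3 in the TCF3-labelled libraries and 0 to 3 in the TCF12-labelled libraries. Against the TCF12-labelled libraries it was 1 to 2 in the TCF3-labelled libraries. A group left with 2 samples shares the spread of the fit.

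Under a block for the replicate number, no count moved by more than 1.5 times (2 on monomer induction, as without the block), and 4 single calls were lost and 3 gained. Same-numbered samples shared little, with a mean correlation of their deviations of 0.0214 over 63 pairs against -0.0102 over 126 differently numbered pairs, so the number was not taken as a pairing. With the longest transcript as the length, Epha1 in place of Ephb4 led in the homodimer. Depth limited Epha3 in the controls and Epha5, Epha6 and Epha10 throughout. A receptor whose group means differ by less than the spread of 3 samples may differ all the same.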
